A study of Mus musculus with 12 samples.

Results

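The mouse genome carries several gene families that expanded in rodents and are transcribed mainly in trophoblast, the cells that form the fetal side of the placenta. The families read here are the placental prolactins, the Serpinb9 protease inhibitors, the placental cathepsins, the trophoblast-specific proteins Tpbpa and Tpbpb, the pregnancy-specific glycoproteins (Psg) and the related Ceacam genes. Ceacam is an exception, since some of its genes are known from other tissues. Members were taken by gene symbol, without regard to expression: Prl followed by a digit, Serpinb9 followed by a letter, Psg or Ceacam followed by digits, 8 named cathepsins, and both Tpbp genes. This gave 70 of the 32245 genes in the expression table, namely 25 prolactins, 15 Ceacam, 13 Psg, 8 cathepsin, 7 Serpinb9 and 2 Tpbp genes. All 70 were found in the count table by Ensembl ID, Serpinb9h under the older symbol Gm11397.

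RNA sequencing had been done on mouse embryonic stem cells (ES cells), with the line given as E14Tg2a.IV, in 3 genotypes at 2 stages. The genotypes were S2/3DKO, lacking both Smad2 and Smad3, S4KO, lacking Smad4, and wild type (WT). Smad2 and Smad3 are the receptor-activated transducers of Nodal, activin and TGF-beta signals, and Smad4 is the common partner of these and of the BMP-activated Smads. Each genotype was sampled as embryoid bodies 4 days after removal of LIF, the cytokine that keeps ES cells undifferentiated (day 4), and as undifferentiated ES cells (day 0). Each of the 6 groups had 2 libraries. The labels give neither the number of clones per genotype nor whether replicates were separate cultures, so p-values measure the spread between these libraries, which may be technical.

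Trophoblast arises from the trophectoderm, the outer layer of the blastocyst, and wild-type mouse ES cells contribute little to it. In the placenta, parietal giant cells and the spongiotrophoblast secrete prolactin-family hormones and Psg proteins into maternal blood. Cathepsins of the placental cluster are lysosomal cysteine proteases, and Serpinb9 proteins block granzymes, the killing proteases of cytotoxic lymphocytes.

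Levels are given as CPM, counts per 1000000 counts of the library. Library totals ran from 31566376 (S4KO day 4, replicate 2) to 55806858 (S2/3DKO day 4, replicate 1), so that 3 counts in a library corresponded to 0.0538 to 0.0950 CPM. A call means an adjusted p below 0.05 in edgeR's quasi-likelihood test, with Benjamini-Hochberg adjustment over the 18693 genes tested. Of the 70 members, 38 passed the filter on low counts, 18 had counts in at least 1 library but were not tested, and 14 had no counts in any library. Where the other group had no counts, a fold is given as a lower bound, computed against a floor of 3 counts over the whole group. Several features separated the genotypes beyond the named edits. Hprt stood at 172 to 207 CPM in the 4 S4KO libraries and at 0.197 to 0.726 CPM in the S2/3DKO and WT libraries. Summed Y-linked transcripts (Ddx3y, Eif2s3y, Kdm5d and Uty) were at 3.21 CPM in S2/3DKO day 4 replicate 1 and at 0.0399 to 0.118 CPM in the other S2/3DKO libraries. They were at 77.1 to 90.1 CPM in S4KO and 76.4 to 168 CPM in WT. Xist was at 33.3 to 125 CPM in S2/3DKO, 1.71 to 8.02 CPM in S4KO and 0.702 to 9.76 CPM in WT. With these differences, the named edits and other differences between the lines cannot be told apart. Whether all 3 genotypes derive from the same parent line, as the line given implies, was not tested. Whole-gene counts did not check the edits, since the edited exons are not given in the sources used here: Smad2 averaged 51.6 ± 1.08 CPM in S2/3DKO and 84.0 ± 19.9 CPM in WT at day 4 (SD, n = 2 each), with an edgeR adjusted p of 0.0528, and Smad4 averaged 137 CPM in S4KO and 131 CPM in WT at day 4.

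As a set, the members were most abundant in S2/3DKO embryoid bodies. Their summed level at day 4 was 300.2 ± 43.4 CPM in S2/3DKO, 17.1 ± 8.34 CPM in S4KO and 10.4 ± 0.0172 CPM in WT (SD, n = 2 each). At day 0 the sum was 77.7 ± 32.1 CPM in S2/3DKO, 35.7 ± 6.02 CPM in S4KO and 14.8 ± 0.874 CPM in WT. At day 4, 28 of the 70 members were called higher in S2/3DKO than in WT (40%, against 7.21% of all genes tested) and 0 were called lower (8.0% of all genes tested). Members' shares are out of all 70, tested or not. On that base, 4.17% of the 32285 genes in the count table were called higher. A lower call needs counts in the other genotype, and few members had them. With the S4KO and WT day 4 libraries alone, 10 members passed the filter on low counts. Against S4KO at day 4, 27 of the 70 were called higher (38.57%, against 6.45%) and 0 lower (5.84% of all genes). Both comparisons use the same S2/3DKO libraries. For 36 members, both S2/3DKO day 4 libraries lay above the other 10 libraries, which held for 10.3% of the 24816 genes with a count. Counts in S2/3DKO libraries and in no S4KO or WT library were found for 33 members, against 4.15% of genes with a count. In these bulk samples, fewer cells of a type and less RNA per cell cannot be told apart.

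The count against WT at day 4 varied with single libraries. Leaving out S2/3DKO day 4 replicate 1 gave 18 and replicate 2 gave 14, while leaving out WT day 4 replicate 1 gave 14 and replicate 2 gave 16. Against S4KO it was 13 without S2/3DKO day 4 replicate 2, 15 without S4KO day 4 replicate 1 and 14 without S4KO day 4 replicate 2. Against WT, 9 of the 28 were called under every alternative tried: Serpinb9b, Serpinb9d, Serpinb9e, Serpinb9f, Serpinb9g, Serpinb9h, Psg29, Ceacam9 and Ceacam15.

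**Figure D1:**
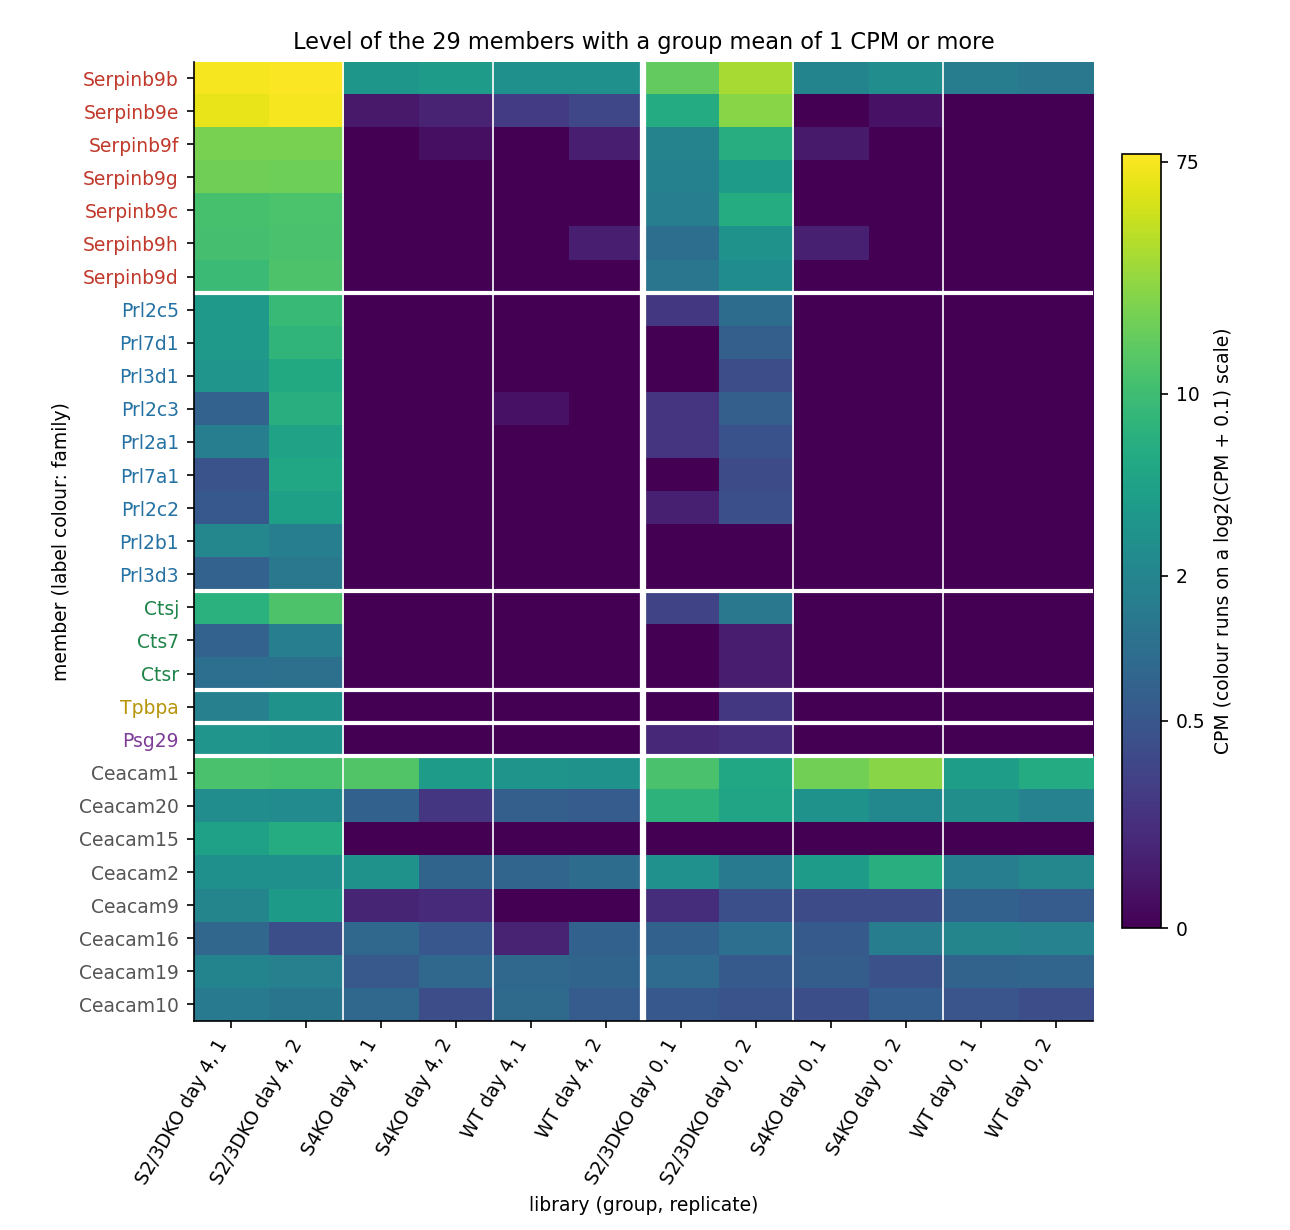
Level of the 29 members with a group mean of at least 1 CPM (rows, label colour by family) in each of the 12 libraries (columns); colour gives CPM on a log2(CPM + 0.1) scale, from 0 (dark) to 75 (bright). Most rows are bright in the S2/3DKO day 4 columns and dark in the S4KO and WT columns, the Ceacam rows excepted.

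The Serpinb9 family was the most abundant of the 6 in S2/3DKO. It comprises 7 paralogs within 0.469 Mb of chromosome 13 (chr13:33027416-33496004, GENCODE vM21 annotation of GRCm38). All 7 were called higher in S2/3DKO than in WT at both stages, and higher than in S4KO at both stages. Of all genes in the count table, 4.17% were called higher than in WT at day 4 and 9.65% at day 0. Against S4KO it was 3.74% and 1.96%. DESeq2 called Serpinb9c in none of these comparisons, with adjusted p of 0.0993 against WT at day 4, 0.128 against WT at day 0 and 0.121 against S4KO at day 4. Against S4KO at day 0, Serpinb9h was no longer called by DESeq2 (adjusted p = 0.126), nor by edgeR once replicate 2 of S4KO day 0 (0.0687) or of S2/3DKO day 0 (0.0815) was dropped. Their summed level at day 4 was 216 ± 12.6 CPM in S2/3DKO, 3.68 CPM in S4KO and 3.12 CPM in WT, and at day 0 it was 54.9 ± 35.8 CPM, 2.36 CPM and 1.44 CPM in the same genotypes.

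Serpinb9b, an inhibitor of granzyme M, was found in every library. At day 4 it stood at 72.6 and 77.4 CPM in S2/3DKO, 3.30 and 3.87 CPM in S4KO and 2.78 and 2.77 CPM in WT. At day 0 it stood at 15.9 and 33.6 CPM in S2/3DKO, 1.96 and 2.57 CPM in S4KO and 1.55 and 1.34 CPM in WT. The S2/3DKO libraries lay above the libraries of both other genotypes at each stage. The log2 fold change of S2/3DKO over WT was 4.65 ± 0.37 at day 4 (SE, edgeR adjusted p = 4.5e-05) and 3.84 ± 0.36 at day 0 (adjusted p = 0.000189).

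Serpinb9e reached a similar level but was nearly silent elsewhere. It stood at 63.7 and 73.2 CPM in S2/3DKO day 4, 0.0590 and 0.0950 CPM in S4KO day 4 and 0.224 and 0.310 CPM in WT day 4. At day 0 it was at 6.08 and 24.5 CPM in S2/3DKO, 0 and 0.0399 CPM in S4KO and 0 in both WT libraries. Its log2 fold change of S2/3DKO over WT at day 4 was 7.89 ± 0.73 (edgeR adjusted p = 0.000183), and at day 0 its level in S2/3DKO was at least 499.9-fold higher than in WT. In WT itself, Serpinb9e was called higher at day 4 than at day 0, at least 8.98-fold, but not once WT day 0 replicate 1 (adjusted p = 0.0552) or replicate 2 (0.0516) was left out.

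The other 5 members, Serpinb9c, Serpinb9d, Serpinb9f, Serpinb9g and Serpinb9h, ranged from 9.35 to 20.9 CPM in S2/3DKO day 4, and in WT day 4 none exceeded 0.0775 CPM. Serpinb9g had 18.6 and 18.2 CPM in S2/3DKO day 4 and no count in any S4KO or WT library, at least 645-fold higher than in WT. Serpinb9c and Serpinb9d likewise had no counts outside S2/3DKO, and their day 4 bounds over WT were at least 404-fold and 375-fold. Serpinb9f had a log2 fold change of 8.89 ± 1.06 at day 4 (edgeR adjusted p = 0.000652) and Serpinb9h of 8.01 ± 1.08 (adjusted p = 0.00184). At day 0 the bounds over WT were at least 62.9-fold for Serpinb9d, 66.4-fold for Serpinb9h, 94.2-fold for Serpinb9g, 129-fold for Serpinb9c and 136-fold for Serpinb9f.

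Reads of these paralogs could be split or misassigned. Of the 50-base stretches in the longest transcript of Serpinb9h, 81.5% also occur in another gene, and the share was 78.7% for Serpinb9f, 54.9% for Serpinb9g, 30.8% for Serpinb9d, 28.4% for Serpinb9e and 18.9% for Serpinb9c. Serpinb9b shares 0.5%, so little of its value rests on that assignment. Serpinb9 itself, the granzyme B inhibitor outside the rule, averaged 10.3 ± 0.611 CPM in S2/3DKO and 1.99 CPM in WT at day 4 (log2 fold change 2.28 ± 0.52, edgeR adjusted p = 0.0140).

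The sequences before the start sites show the most alike pair of the family, among the windows aligned, beside Serpinb9b. Windows of 250 bases before to 50 bases after the RefSeq start (GRCm38.p6) were read for 61 of the 70 members, 68 windows in all. Over these windows Serpinb9d, Serpinb9e, Serpinb9f and Serpinb9g were 83.2% to 93.4% identical to each other, with Serpinb9e and Serpinb9g the closest pair. Serpinb9c and Serpinb9h were 50.3% to 54.5% and Serpinb9b 45.2% to 48.9% identical to these 4, and the median over all Serpinb9 pairs was 51.4%. Identities used a single window per gene. For Serpinb9c this was the window beginning at base 33158302 of chromosome 13. Its other window, beginning at 33159705 and nearer the 5′ end of the annotated gene, was not aligned. The 250 bases before the start are printed 5′ to 3′ on the gene's strand for chr13:33249358-33249607 (plus strand, Serpinb9e), chr13:33484540-33484789 (plus strand, Serpinb9g) and chr13:33027164-33027413 (plus strand, Serpinb9b), with matches to the searched motifs in capitals.
Serpinb9e: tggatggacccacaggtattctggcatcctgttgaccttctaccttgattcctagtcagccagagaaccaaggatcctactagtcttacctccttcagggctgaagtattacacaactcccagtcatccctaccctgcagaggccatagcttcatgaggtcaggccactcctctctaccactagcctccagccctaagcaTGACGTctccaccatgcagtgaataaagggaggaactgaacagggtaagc
Serpinb9g: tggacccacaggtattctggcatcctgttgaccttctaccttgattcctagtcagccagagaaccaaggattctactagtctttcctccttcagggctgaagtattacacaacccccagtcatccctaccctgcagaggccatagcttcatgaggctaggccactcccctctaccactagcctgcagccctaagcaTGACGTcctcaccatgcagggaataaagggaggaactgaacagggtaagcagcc
Serpinb9b: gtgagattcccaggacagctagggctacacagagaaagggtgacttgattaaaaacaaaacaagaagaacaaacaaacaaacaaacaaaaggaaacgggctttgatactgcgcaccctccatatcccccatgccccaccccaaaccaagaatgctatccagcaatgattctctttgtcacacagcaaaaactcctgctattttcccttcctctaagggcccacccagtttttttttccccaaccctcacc
The capitals mark TGACGT, a core of the cyclic AMP response element, with its first base at position -50 from the start in Serpinb9e and -54 in Serpinb9g. This motif was added after these sequences were seen. It occurred in 5 of the 8 Serpinb9 windows (those of Serpinb9c, Serpinb9d, Serpinb9e, Serpinb9f and Serpinb9g) and in 7.51% of all 32851 windows. In Serpinb9c it lay in the window that was not aligned. No searched motif occurred in the printed Serpinb9b bases.

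The prolactin family had the most members with counts in S2/3DKO and in neither other genotype. At day 4 its summed level was 35.7 ± 23.7 CPM in S2/3DKO, 0 in both S4KO libraries and 0.0187 CPM in WT (SD, n = 2 in S2/3DKO). Of the 25 prolactins, 11 were called higher in S2/3DKO than in WT at day 4 (44%) and 0 lower. A lower call was not possible, since WT day 4 held 2 prolactin counts in replicate 1 and 0 in replicate 2. Of all genes in the count table, 4.17% were called higher and 4.63% lower. Counts in S2/3DKO and in no library of S4KO or WT were found for 18 prolactins, against 4.15% of genes with a count. At day 0, 3 were called higher than in WT (12% of prolactins, against 16.7% of all genes tested and 9.65% of all genes in the count table).

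Prl3d1, Prl3d2 and Prl3d3 encode placental lactogen I, the luteotropic hormone of early parietal giant cells. Prl3d1 stood at 3.14 and 5.75 CPM in S2/3DKO day 4 and at 0 and 0.390 CPM in S2/3DKO day 0, with no counts in the 8 other libraries. It was at least 153-fold higher in S2/3DKO than in WT at day 4 (edgeR adjusted p = 0.0131). Prl3d2 and Prl3d3 averaged 0.984 and 1.03 CPM in S2/3DKO day 4 and had no counts in any other group. The bounds over WT were at least 33.8-fold for Prl3d2 and 35.4-fold for Prl3d3. The 3 genes share 57.1% to 68.2% of their 50-base stretches with other genes. Prl3b1, the later placental lactogen II, had 0.251 and 0.1995 CPM in S2/3DKO day 4, no counts elsewhere, and was not tested.

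Proliferins, growth factors that promote blood vessel growth, come from the Prl2c genes. Prl2c5 stood at 3.62 and 8.98 CPM in S2/3DKO day 4 and at 0.196 and 0.975 CPM in S2/3DKO day 0. It had no counts in S4KO or WT and was at least 216-fold higher than in WT at day 4 (edgeR adjusted p = 0.00394). Prl2c3 was 188-fold higher than in WT at day 4, with a 95% counting interval of 51.8 to 1560, since WT had 2 counts. Prl2c2 was at least 82.8-fold higher. Prl2c2 shares 89.5% and Prl2c3 78.6% of its 50-base stretches with another gene, mainly with each other, so the split between them is uncertain.

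Prl7d1, the proliferin-related protein that restrains blood vessel growth, stood at 3.49 and 7.90 CPM in S2/3DKO day 4 and at 0 and 0.650 CPM in S2/3DKO day 0. With no counts in S4KO or WT, it was at least 196-fold higher than in WT at day 4 (edgeR adjusted p = 0.0164). Prl2a1 stood at 1.67 and 4.67 CPM and Prl2b1 at 2.10 and 1.64 CPM in S2/3DKO day 4. Prl2a1 was at least 108-fold and Prl2b1 at least 65.9-fold higher than in WT. Prl7a1 had 0.448 and 5.39 CPM in S2/3DKO day 4, at least 97.7-fold higher than in WT (adjusted p = 0.0404), and Prl6a1 was at least 31.1-fold higher. No 50-base stretch of Prl7d1, Prl7a1, Prl2a1 or Prl2b1 occurs in another gene.

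Of the 11 prolactins called at day 4, Prl2a1 and Prl2c5 were called with any single library left out. Each of the other 9 lost the call without at least 1 of the 4 day 4 libraries of S2/3DKO and WT, at adjusted p of 0.0501 to 0.228. Without S2/3DKO day 4 replicate 2, 8 of them lost it, Prl2b1 being the exception, which lost it without replicate 1 (adjusted p = 0.0612). DESeq2 called neither Prl2a1 (adjusted p = 0.185) nor Prl2c5 (0.134) against WT at day 4. Of the 11 it called only Prl2b1. The 6 prolactins with no counts anywhere were Prl3a1, Prl3c1, Prl7a2, Prl8a2, Prl8a6 and Prl8a8.

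Prolactin genes of different subfamilies shared their upstream sequence. Over the 300-base windows Prl2c5 and Prl7d1 were 94.0% identical, although they lie in separate clusters of chromosome 13 (chr13:12790816-13191923 and chr13:27094190-28151611). The median identity over prolactin pairs was 54.8%. The printed bases are chr13:13182466-13182715 (plus strand) and chr13:27716737-27716986 (minus strand).
Prl2c5: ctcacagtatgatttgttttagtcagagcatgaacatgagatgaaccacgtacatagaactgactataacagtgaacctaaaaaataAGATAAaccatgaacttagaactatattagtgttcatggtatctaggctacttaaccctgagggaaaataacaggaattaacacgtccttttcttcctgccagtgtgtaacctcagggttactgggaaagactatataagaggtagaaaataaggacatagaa
Prl7d1: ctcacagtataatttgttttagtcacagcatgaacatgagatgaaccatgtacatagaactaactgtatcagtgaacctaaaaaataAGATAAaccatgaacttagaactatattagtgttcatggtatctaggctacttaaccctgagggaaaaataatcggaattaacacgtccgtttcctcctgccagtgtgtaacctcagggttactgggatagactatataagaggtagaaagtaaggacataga
Capitals mark AGATAA, the GATA-factor motif, whose first base lies at position -163 from the start in both. Of the 24 prolactin windows 12 held AGATAA on either strand (50%), against 11.2% of all windows, and 7 held the TEAD motif ACATTCC (29.2%, against 3.85%). Counted once per gene, 10 of 21 prolactins held AGATAA (47.6%, against 12.7% of all genes) and 6 held ACATTCC (28.6%, against 4.47%), and near-identical windows such as those of Prl2c3, Prl2c5 and Prl7d1 are not independent. Of the prolactins with AGATAA, Prl2b1, Prl2c3, Prl2c5, Prl6a1, Prl7a1 and Prl7d1 were called higher at day 4. Prl4a1 was not called, and Prl3c1, Prl8a6 and Prl8a8 had no counts. ACATTCC was in Prl5a1, Prl6a1, Prl8a1, Prl8a6, Prl8a8 and Prl8a9, of which only Prl6a1 was called. AGATAA was also in 7 of 13 Ceacam genes (53.8%), none of them called against WT at day 4. It was in 1 of 10 Psg genes, 1 of 7 Serpinb9 genes, and 0 of 8 cathepsin and 0 of 2 Tpbp genes. Over all 68 member windows the shares were 32.4% for AGATAA, 11.8% for ACATTCC and 11.8% for the AP-2 motif GCCNNNGGC, which 16.6% of all windows held. The SMAD palindrome GTCTAGAC occurred in 0 member windows and in 0.213% of all windows. It is too rare for its absence from 68 windows to be informative. No matches of different motifs overlapped in the member windows, and a match of letters is not a bound site.

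The 22 prolactins of the larger cluster included 8 called higher at day 4, and all 3 of the smaller cluster were called, against 4.17% of all genes in the count table. Among other genes of the chromosome, the median log2 fold change of S2/3DKO over WT at day 4 was -0.08 (789 genes on chromosome 13), against -0.03 for all genes.

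**Figure D2:**
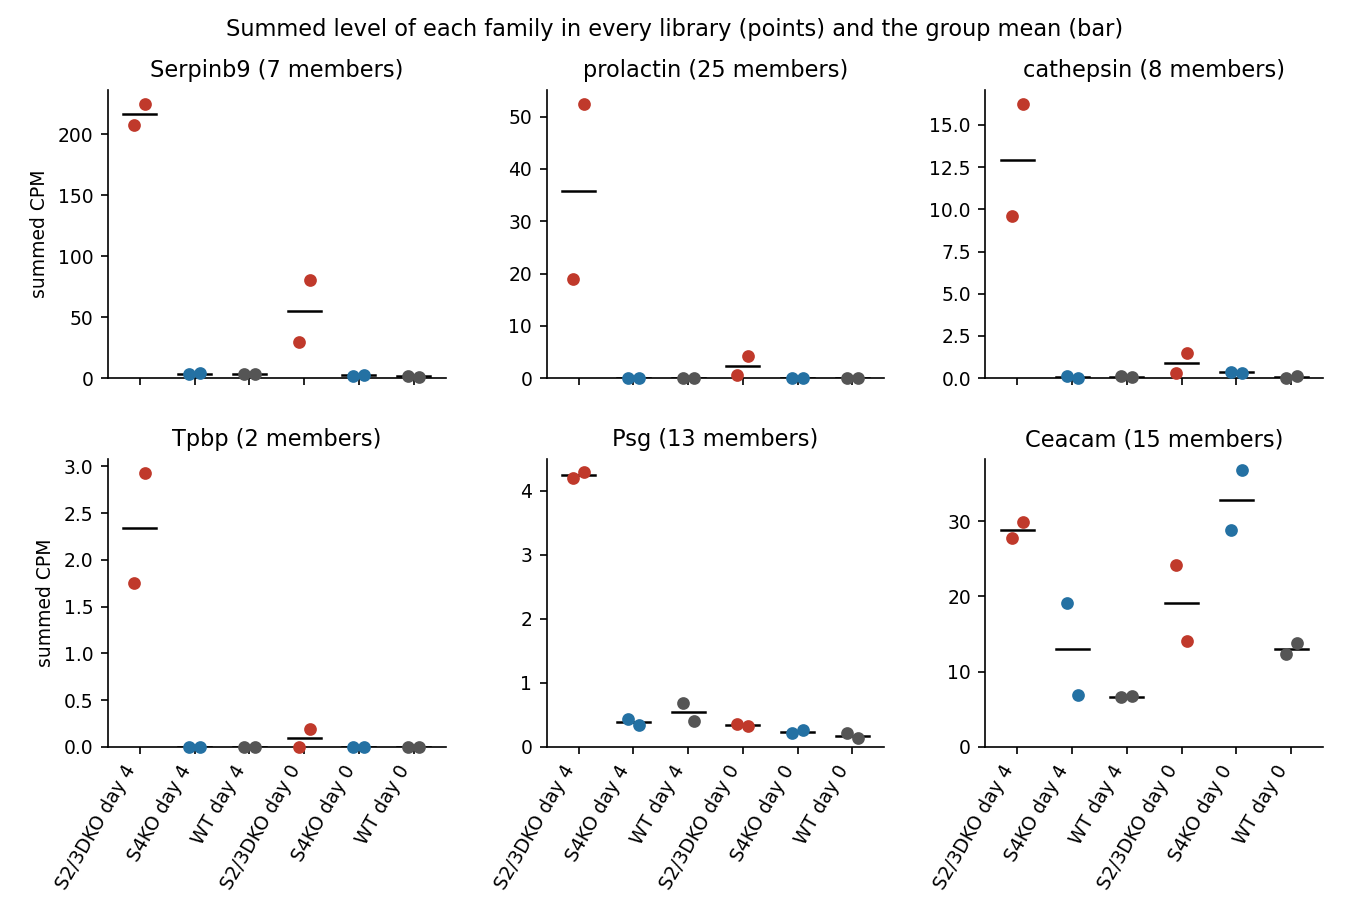
Summed CPM of each family (vertical axis, from 0) in every library, with 2 points per group and a bar at their mean. The S2/3DKO day 4 points lie above all other groups for Serpinb9, prolactin, cathepsin, Tpbp and Psg, whereas in the Ceacam panel the S4KO day 0 points reach the same height.

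Among the placental cathepsins, Ctsj carried most of the signal. Ctsj, cathepsin J, stood at 7.11 and 12.2 CPM in S2/3DKO day 4 and at 0.294 and 1.34 CPM in S2/3DKO day 0, with no counts in S4KO or WT. It was at least 333-fold higher in S2/3DKO than in WT at day 4 (edgeR adjusted p = 0.00208) and at least 26.8-fold higher at day 0 (adjusted p = 0.00844). Of the 8 cathepsins, 3 were called higher than in WT at day 4 (37.5%) and 0 lower. A lower call was hardly possible, since WT day 4 held 6 cathepsin counts in replicate 1 and 3 in replicate 2. Of all genes in the count table, 4.17% were called higher and 4.63% lower. DESeq2 called none of the 3 at day 4 (adjusted p = 0.109 for Ctsj, 0.281 for Cts7 and 0.293 for Ctsr), nor Ctsj at day 0. Cts7 had 0.717 and 1.64 CPM and Ctsr 1.04 and 1.08 CPM in S2/3DKO day 4. Cts7 was at least 40.4-fold and Ctsr at least 37.1-fold higher than in WT, and both calls were lost without any 1 of the 4 day 4 libraries of S2/3DKO and WT (adjusted p of 0.0568 to 0.131).

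Ctsq, a marker of sinusoidal giant cells of the labyrinth, had 0.520 and 1.14 CPM in S2/3DKO day 4, no counts in S4KO day 4, and 0 and 0.0581 CPM in WT day 4. It was called against S4KO, at least 22.3-fold higher (edgeR adjusted p = 0.0372), but not against WT (adjusted p = 0.0592), and the first call was lost without any 1 of the 4 day 4 libraries of S2/3DKO and S4KO (0.113 to 0.213). DESeq2 did not call Ctsq against S4KO at day 4 (adjusted p = 0.366). Ctsm had no counts in S2/3DKO and up to 0.364 CPM in S4KO day 0. Ctsl, the widely expressed relative outside the rule, was called lower in S2/3DKO than in WT at day 4 (log2 fold change -1.43 ± 0.25, adjusted p = 0.00400).

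Tpbpa, the marker of spongiotrophoblast and its ectoplacental cone precursors, stood at 1.76 and 2.93 CPM in S2/3DKO day 4 and at 0 and 0.195 CPM in S2/3DKO day 0. It had no counts in S4KO or WT, and at day 4 it was at least 81.1-fold higher in S2/3DKO than in WT (edgeR adjusted p = 0.0144). Leaving out S2/3DKO day 4 replicate 1 (0.0503), S2/3DKO day 4 replicate 2 (0.0822) or WT day 4 replicate 1 (0.0623) ended the call. DESeq2 did not call Tpbpa against WT at day 4 (adjusted p = 0.212). Tpbpb had no counts, although its 300-base window is 95.7% identical to that of Tpbpa. The bases before the Tpbpa start (chr13:60941937-60942186, minus strand) are shown with the AP-2 motif, at position -114, in capitals.
Tpbpa: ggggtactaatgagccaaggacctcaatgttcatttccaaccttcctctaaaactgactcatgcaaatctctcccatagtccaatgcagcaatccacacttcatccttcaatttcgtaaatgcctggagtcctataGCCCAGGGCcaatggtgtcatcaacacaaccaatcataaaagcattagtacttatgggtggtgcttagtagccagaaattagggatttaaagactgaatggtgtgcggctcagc
Both Tpbp windows held this motif. The cathepsin and Tpbp genes lie together in chr13:60901188-61570127, where 4 of 10 were called higher at day 4, against 4.17% of all genes in the count table.

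The Psg family was mostly silent. Psg29 stood at 3.21 and 3.03 CPM in S2/3DKO day 4 and at 0.118 and 0.152 CPM in S2/3DKO day 0, with no counts in S4KO or WT. It was at least 110-fold higher in S2/3DKO than in WT at day 4 (edgeR adjusted p = 0.00155). Psg22 had 0.645 and 0.419 CPM in S2/3DKO day 4, 56.6-fold higher than in WT with a 95% counting interval of 9.76 to 2275, since WT had 1 count. The Psg22 call (adjusted p = 0.0439) was lost without any 1 of 6 libraries (0.0642 to 0.252): both S2/3DKO day 4, both WT day 4 and both WT day 0 libraries. These were 2 of 13 Psg genes called higher (15.38%) and 0 were called lower. Psg16 had 54 counts over both WT day 4 libraries and no other Psg gene had more than 2, so the others could hardly be called lower. Of all genes in the count table, 4.17% were called higher and 4.63% lower. DESeq2 did not call Psg22 against WT, nor did edgeR without a filter on low counts or with a replicate block. Psg16 had counts in all 12 libraries and was lowest at day 4 in S2/3DKO, with 0.287 and 0.140 CPM, against 0.432 and 0.317 CPM in S4KO and 0.616 and 0.407 CPM in WT (S2/3DKO against WT, adjusted p = 0.211). The other 10 Psg genes stayed at or below 0.279 CPM in every library.

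Several Ceacam genes were transcribed in all 3 genotypes. Their summed level at day 4 was 28.8 ± 1.503 CPM in S2/3DKO, 13.02 ± 8.64 CPM in S4KO and 6.66 ± 0.0838 CPM in WT (SD, n = 2 each). At day 0 it was 19.1 ± 7.11 CPM in S2/3DKO, 32.8 ± 5.66 CPM in S4KO and 13.1 ± 0.993 CPM in WT. Of 15 Ceacam genes, 4 were called higher in S2/3DKO than in WT at day 4 (Ceacam1, Ceacam9, Ceacam15 and Ceacam20) and 0 lower. The 4 were 26.67% of the family, while 4.17% of all genes in the count table were called higher and 4.63% lower.

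Ceacam15, one of the family's genes with no counts in S4KO or WT, had 4.53 and 6.15 CPM in S2/3DKO day 4 and no counts in the other 10 libraries. It was at least 186-fold higher than in WT at day 4 (edgeR adjusted p = 0.00187). Ceacam9, which is transcribed in trophoblast, stood at 1.97 and 3.69 CPM in S2/3DKO day 4, 0.0983 and 0.127 CPM in S4KO day 4 and 0 in both WT day 4 libraries. At day 0 the order differed, with 0.137 and 0.412 CPM in S2/3DKO, 0.364 and 0.379 CPM in S4KO and 0.702 and 0.604 CPM in WT. At day 4 Ceacam9 was at least 97.7-fold higher in S2/3DKO than in WT (adjusted p = 0.000463). In WT it was at least 22.9-fold lower at day 4 than at day 0 (adjusted p = 0.000639), and in S2/3DKO it was higher at day 4 (log2 fold change 3.29 ± 0.63, adjusted p = 0.0180, lost without S2/3DKO day 0 replicate 1 at 0.0776, S2/3DKO day 4 replicate 1 at 0.0624 or S2/3DKO day 4 replicate 2 at 0.186).

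Ceacam1, an adhesion receptor of many epithelia, stood at 11.5 and 11.4 CPM in S2/3DKO day 4, 12.8 and 3.77 CPM in S4KO day 4 and 3.12 and 2.95 CPM in WT day 4. At day 0 it was highest in S4KO, with 11.6 and 5.35 CPM in S2/3DKO, 19.4 and 24.5 CPM in S4KO and 3.99 and 5.998 CPM in WT. The log2 fold change of S2/3DKO over WT at day 4 was 1.81 ± 0.52 (edgeR adjusted p = 0.0367). The log2 fold change of S4KO over WT at day 0 was 1.95 ± 0.52 (adjusted p = 0.0250). The day 4 call was lost without any 1 of the 6 S2/3DKO day 4 and WT libraries (0.0538 to 0.131), and the day 0 call without any 1 of the 4 S4KO and WT day 0 libraries (0.0573 to 0.203). Its neighbour Ceacam2, with which it shares 48.2% of its 50-base stretches, was not called in any comparison by edgeR over all 12 libraries (S2/3DKO over WT at day 4, log2 fold change 1.55, adjusted p = 0.0917). For S4KO against WT at day 0 it was called in the edgeR fit to those groups alone and by limma on log2(FPKM + 1), and for day 4 against day 0 in S4KO by DESeq2.

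Ceacam20, a membrane protein known from the intestinal brush border, was at 2.58 and 2.39 CPM in S2/3DKO day 4, 0.688 and 0.190 CPM in S4KO day 4 and 0.653 and 0.601 CPM in WT day 4. At day 0 it was at 7.36 and 4.81 CPM in S2/3DKO, 2.89 and 2.19 CPM in S4KO and 2.63 and 1.85 CPM in WT. Its log2 fold change of S2/3DKO over WT at day 4 was 1.88 ± 0.51 (edgeR adjusted p = 0.0296), a call lost without any 1 of the 4 day 4 libraries of S2/3DKO and WT (0.103 to 0.133). Ceacam16, an inner ear protein, was lower in WT day 4 than in WT day 0 (log2 fold change -2.51 ± 0.79, adjusted p = 0.0246, lost without WT day 0 replicate 1 or 2 or WT day 4 replicate 1, 0.0616 to 0.101). Ceacam10 and Ceacam19 had both S2/3DKO day 4 libraries above the other 10 without being called (adjusted p of 0.376 and 0.139 against WT).

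In undifferentiated cells, the Serpinb9 genes were the main difference within the families. At day 0, 12 of the 70 members were called higher in S2/3DKO than in WT, 17.14%, against 16.7% of all genes tested and 9.65% of all genes in the count table. These were all 7 Serpinb9 genes, Prl2a1, Prl2c3, Prl2c5, Ctsj and Psg29. Ceacam18 was called lower (1.429%, against 14.4%), with no counts in S2/3DKO, 0.686 and 0.538 CPM in S4KO and 0.181 and 0.175 CPM in WT. The number called in either direction was 13, and leaving out S2/3DKO day 0 replicate 2 gave 8, WT day 0 replicate 1 gave 7 and WT day 0 replicate 2 gave 8. The 7 Serpinb9 calls held with any single library left out, while Ctsj (0.0602 without WT day 0 replicate 1) and the 5 others (0.0527 to 0.172) did not. Against S4KO at day 0, 9 members were called higher (12.86%, against 3.38%), namely the 7 Serpinb9 genes, Ctsj and Prl2c5, and Ceacam18 was called lower (2.15% of all genes tested were). Without S2/3DKO day 0 replicate 2, the 10 calls in either direction came to 6.

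Few members were called in S4KO against WT, which does not show that the genotypes were alike. Most members had too few counts in these genotypes to be called. Fitted to the contrast's groups alone, 10 of the 70 passed the filter on low counts at day 4 and 10 at day 0. At day 4, 0 of 70 were called in S4KO against WT in either direction by edgeR, with 0.679% of all genes tested called higher and 1.05% lower. At an unadjusted p below 0.05 there were 2, DESeq2 called 0, and the edgeR fit without a filter on low counts called Ceacam9. Without S4KO day 4 replicate 2, the library with the fewest counts, edgeR called 1. At day 0 only Ceacam1 was called higher in S4KO than in WT (1.429% of members, against 10.5% of all genes tested) and 0 were called lower (9.14%). No prolactin and no Tpbp count was found in any S4KO library.

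**Figure D3:**
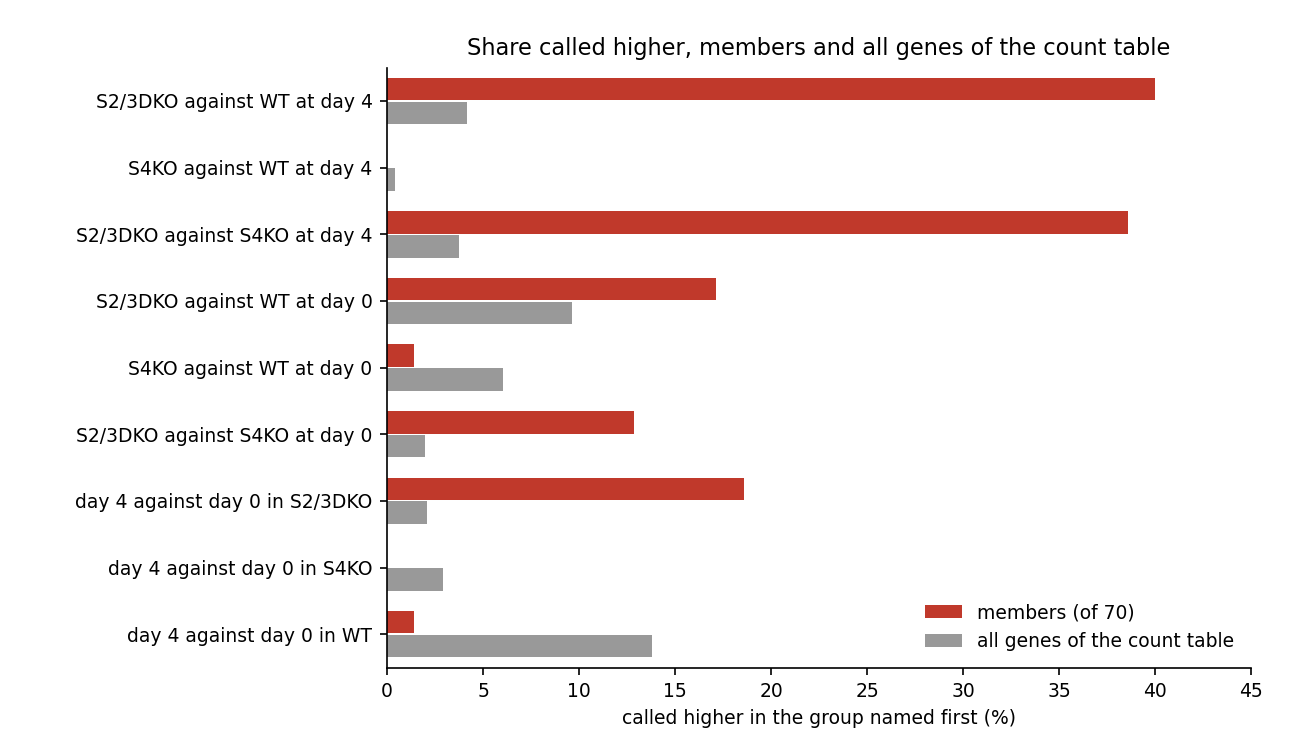
Percent called higher in the group named first (horizontal axis, edgeR adjusted p below 0.05), for the 70 members (red) and for the 32285 genes of the count table (grey), genes not tested being counted as not called in both, in 9 comparisons. The members' bar is the longer one in the 4 comparisons of S2/3DKO with another genotype and for day 4 against day 0 in S2/3DKO, and the shorter one in the other 4.

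Within S2/3DKO, members of 5 families were higher in embryoid bodies than in undifferentiated cells. Of the 70 members, 13 were called higher at day 4 than at day 0 (18.57%, against 3.57% of all genes tested) and 0 lower (3.46%). Serpinb9b had a log2 fold change of 1.53 ± 0.32 (edgeR adjusted p = 0.0209), Serpinb9g of 2.62 ± 0.47 (0.0237), Ctsj of 3.49 ± 0.74 (0.0374) and Psg29 of 4.43 ± 0.68 (0.0159). The others were Serpinb9d, Serpinb9e, Prl2b1, Prl3d2, Prl3d3, Ctsq, Psg22, Ceacam9 and Ceacam15, the last at least 171-fold higher. This count depended on single libraries: it was 1 without S2/3DKO day 0 replicate 1, 1 without S2/3DKO day 4 replicate 1, 0 without S2/3DKO day 4 replicate 2, and 8 without either WT day 0 replicate. In S4KO, 0 members were called higher at day 4 than at day 0 (5.08% of all genes tested were) and 1 lower, Ceacam20 (3.81%), a call lost without S4KO day 0 replicate 1 (0.0528) or S4KO day 4 replicate 2 (0.108). In WT, 1 was called higher, Serpinb9e (23.8%), and 3 lower, Ceacam9, Ceacam16 and Ceacam20 (19.9%), with 1 call in all once WT day 0 replicate 1 was left out and 2 once replicate 2 was. Whether the S2/3DKO effect itself differed between the stages was tested as an interaction, and of the members Ceacam9 was called as larger at day 4 (edgeR adjusted p = 0.00664; WT had 0 counts at day 4, so the fitted size depends on the prior count; against 1.83% of all genes called higher and 4.26% called lower). For S4KO the interaction called 0 members (0.0107% of all genes higher, 0.139% lower), with 1 at an unadjusted p below 0.05 and Ceacam9 called by DESeq2. Fitted to the contrast's groups alone, 11 members passed the filter on low counts for this interaction. For day 4 against day 0 it was 10 in S4KO and 10 in WT.

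Per length, Serpinb9e led the families in S2/3DKO embryoid bodies. On the deposited FPKM scale, fragments per kilobase per 1000000, its level was 35.2 ± 3.44 FPKM (SD, n = 2), the 92.5th percentile of all genes in the table. Serpinb9b followed with 23.1 ± 1.07 FPKM and Serpinb9f with 10.8 ± 0.0999 FPKM. Each of these 3 was separate from the next in both libraries. From Serpinb9g at 9.44 FPKM, Serpinb9d at 8.52, Ctsj at 7.26, Prl2c5 at 6.84, Serpinb9c at 6.02, Serpinb9h at 5.99 and Prl3d1 at 5.03 FPKM onward, the libraries of neighbours overlapped.

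**Figure D4:**
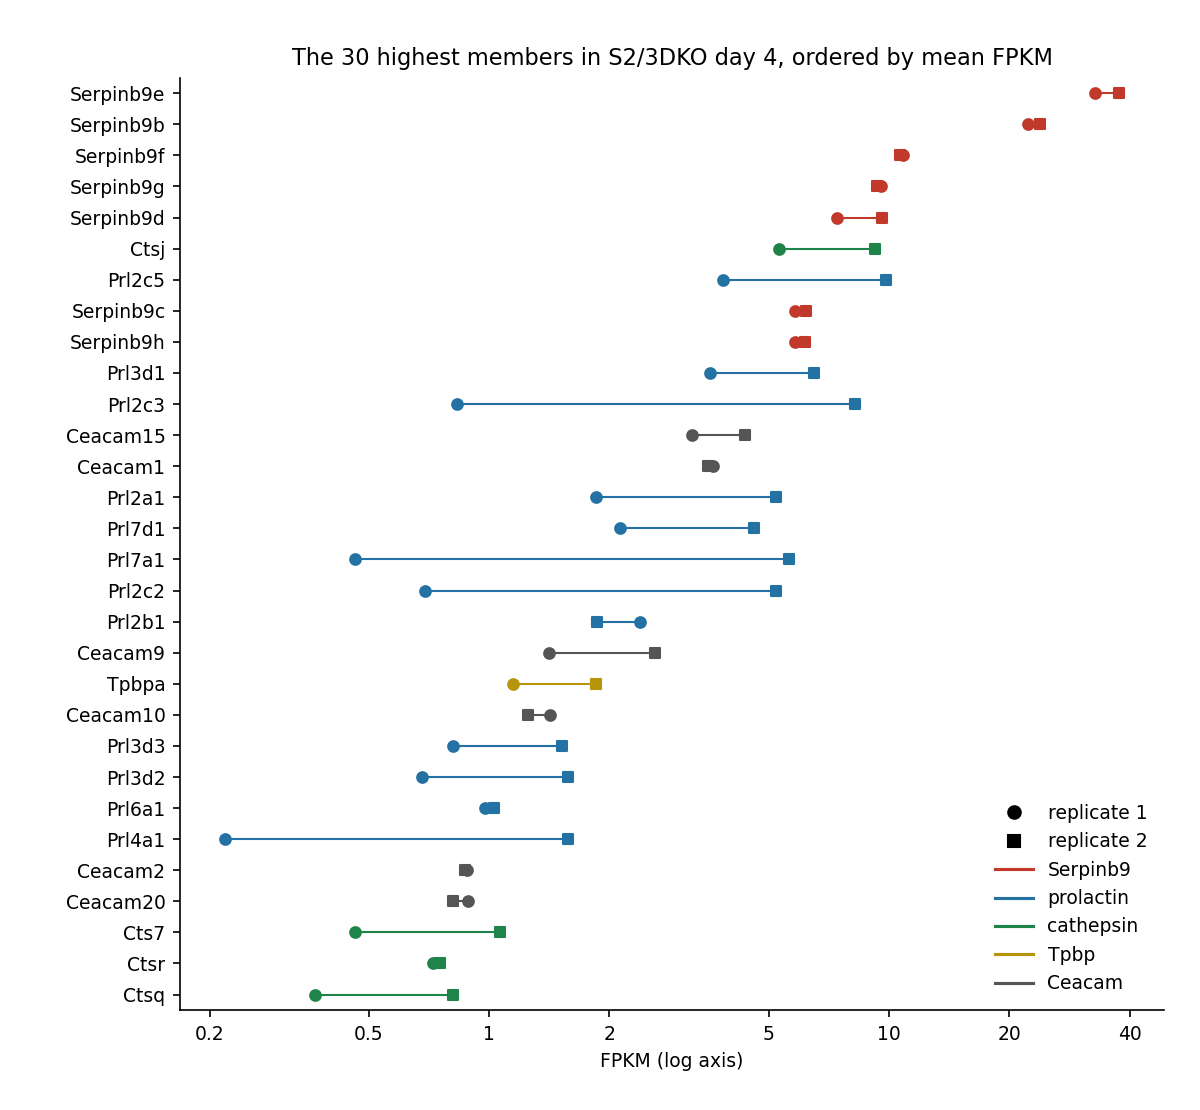
FPKM (horizontal log axis) of the 30 highest members in S2/3DKO day 4, ordered by mean, with a circle for replicate 1, a square for replicate 2 and colour by family. Serpinb9 points lie close together, while the 2 points of many prolactins lie far apart, with replicate 2 higher.

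The families differed in how evenly the S2/3DKO replicates carried them. At day 4 the ratio of replicate 2 to replicate 1 in CPM was 0.976 to 1.30 for the 7 Serpinb9 genes and 0.780 to 12.02 for 14 prolactins with at least 30 counts over both libraries. For 11 of these 14 the 95% counting interval lay above 1. Prl7a1 had the highest ratio, 12.02 (interval 7.97 to 18.9), followed by Prl2c3 at 9.44, Prl2c2 at 8.17 and Prl4a1 at 7.09. Cathepsins ran from 1.04 to 2.28, Tpbpa was at 1.67 and the Psg pair at 0.650 and 0.945. At day 0 all 7 Serpinb9 genes had a ratio above 1, from 1.97 to 4.02, as did Ctsj at 4.57, Prl2c5 at 4.97 and Prl2c3 at 3.68, whereas 4 of 6 Ceacam genes had an interval below 1. Prl7d1 had 0 counts in replicate 1 and 30 in replicate 2 at day 0, so its ratio is undefined, with an interval from 8.44 upward. The S2/3DKO day 0 replicate 2 library also had the largest share of mitochondrial counts, 6.74% against 1.87% to 3.93% elsewhere, and the part of this in the ratios was not tested. At day 4, summed Y-linked transcripts were at 3.21 CPM in S2/3DKO replicate 1 and 0.0399 CPM in replicate 2. The part of that difference in the ratios was likewise not tested.

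**Figure D5:**
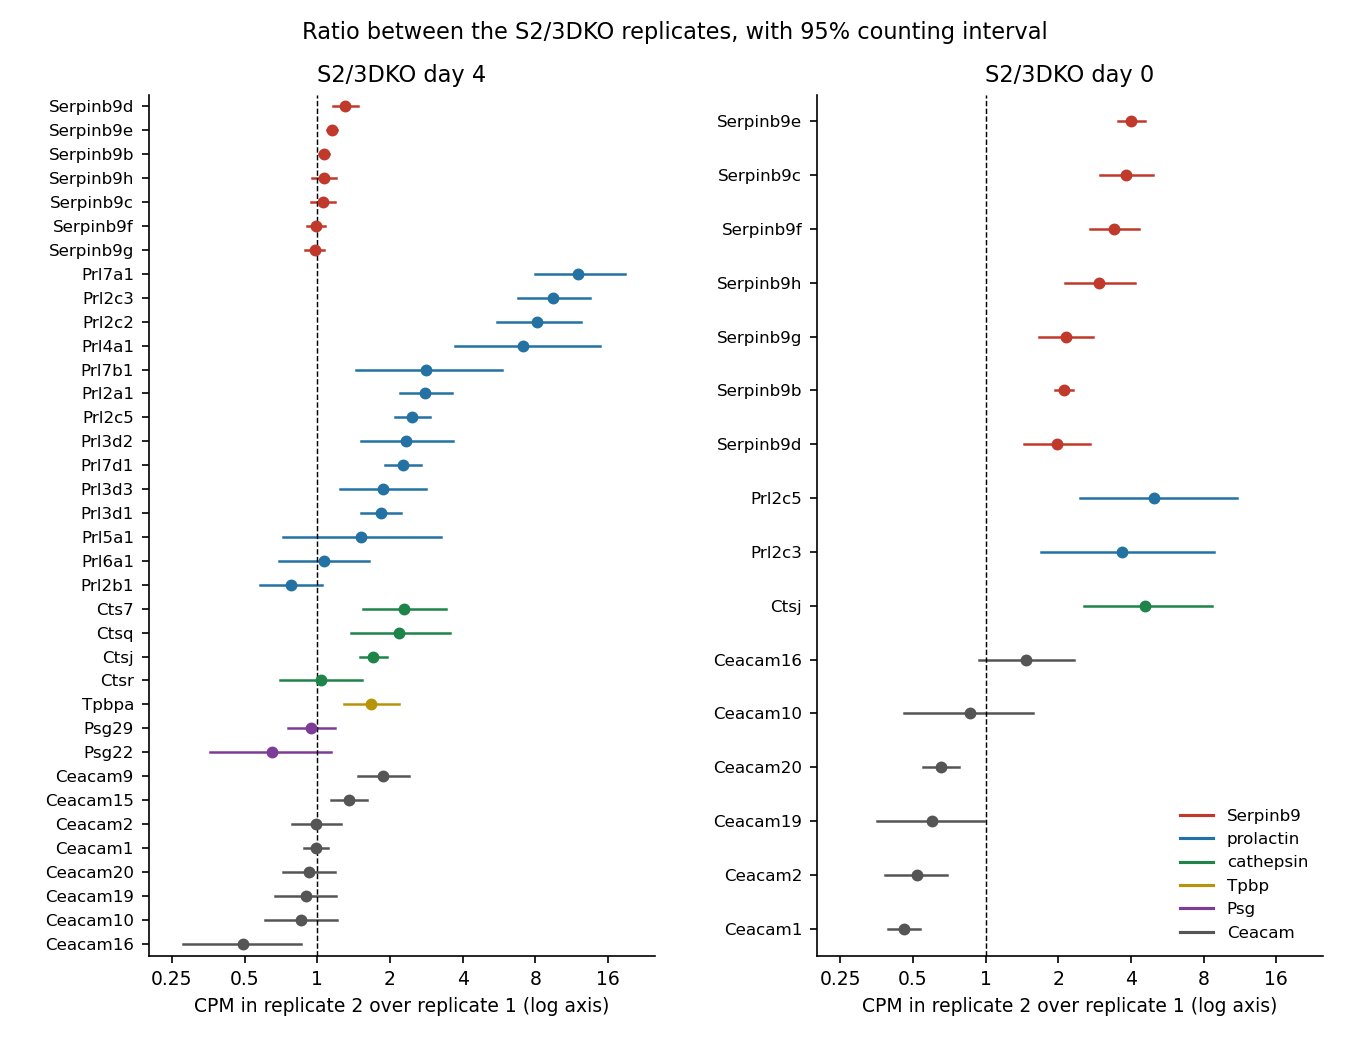
CPM in replicate 2 over replicate 1 (horizontal log axis) of members with at least 30 counts over both libraries, in S2/3DKO day 4 and S2/3DKO day 0, with 95% counting intervals and a dashed line at 1. Prl7d1 at day 0, with 0 counts in replicate 1, has no ratio and is not shown. At day 4 the Serpinb9 points sit near 1 and most prolactin points to its right; at day 0 the Serpinb9 points lie between 1.97 and 4.02.

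Other trophoblast genes were higher in the same libraries. The marker lists of this and the next paragraph were chosen with earlier results of these data known. Their counts are description and not independent support. Of 20 markers of trophectoderm and trophoblast stem cells, 17 were called higher in S2/3DKO than in WT at day 4 and 1 lower. Their median log2 fold change was 3.29, against -0.03 over all genes. It was 3.15 with genes at 0 counts in either group set to their bound and genes with 1 to 3 counts set to their count ratio. Their summed level at day 4 was 3898 and 4617 CPM in S2/3DKO, 761 and 741 CPM in S4KO and 674 and 931 CPM in WT. Gata2, a GATA factor of trophoblast, was at 130 and 150 CPM in S2/3DKO day 4 and 0.690 and 1.53 CPM in WT day 4 (log2 fold change over WT 6.87 ± 0.51, edgeR adjusted p = 4.1e-05) and Gata3 had a log2 fold change of 5.37 ± 0.51 (0.000124). Eomes, a trophoblast stem cell and primitive streak factor, was the one called lower (-5.23 ± 0.29, 1.7e-05), and Cdx2, the trophectoderm determinant, was not called at day 4 (0.41, adjusted p = 0.761). At day 0, 13 of the 20 were called higher and 0 lower. Of all genes tested, 7.21% were called higher and 8.0% lower than in WT at day 4, and 16.7% and 14.4% at day 0.

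Of 20 markers of spongiotrophoblast, giant cells and labyrinth outside the families, 12 were called higher at day 4 and 0 lower, and 9 higher and 0 lower at day 0. They summed to 17410 and 24990 CPM in S2/3DKO day 4, 503 and 817 CPM in S4KO day 4 and 960 and 837 CPM in WT day 4. None was at 0 in the S2/3DKO day 4 libraries or in WT day 4 replicate 1, and 1 was at 0 in each S2/3DKO day 0 library. Plac1, a placental gene of the trophoblast lineage (7.21 ± 0.58), Hand1, required for giant cell formation (5.73 ± 0.97), Ascl2, required for spongiotrophoblast (3.62 ± 0.63), and Syna, the syncytin of labyrinth syncytiotrophoblast (6.39 ± 0.45), gave these log2 fold changes over WT at day 4. Markers of other cells that such cultures can hold were also read in S2/3DKO against WT. For this and the list above, the shares over all genes tested were 7.21% higher and 8.0% lower at day 4. At day 0 they were 16.7% and 14.4%, which counts such as 3 of 12 do not clearly exceed. Extraembryonic endoderm had 0 of 16 called higher and 6 lower at day 4, and 10 higher and 0 lower at day 0. Against S4KO, 9 of these 16 were called higher and 0 lower at day 4 and 6 higher and 0 lower at day 0, and 10 were higher and 0 lower at day 4 than at day 0 in S2/3DKO. Of all genes tested, 6.45% were higher and 5.84% lower than in S4KO at day 4, and 3.38% and 2.15% at day 0. Between the stages in S2/3DKO, 3.57% were higher and 3.46% lower at day 4. The endoderm sums at day 4 were 1858 and 1483 CPM in S2/3DKO, 377 and 540 CPM in S4KO and 1555 and 1988 CPM in WT, and at day 0 they were 652 and 818 CPM in S2/3DKO. The 2-cell embryo list had 0 of 13 found genes called in either direction at day 4 and 9 higher at day 0. Fibroblast markers had 1 of 11 higher and 2 lower at day 4 (sums of 54.2 to 60.5 CPM in S2/3DKO and 25.5 to 38.1 CPM in WT), and 1 higher at day 0. Blood and endothelium markers had 3 of 12 higher at day 4 (sums of 111 to 137 CPM in S2/3DKO and 38.0 to 38.4 CPM in WT), and 3 higher and 1 lower at day 0. The part of any of these cells in the members' levels was not tested.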

How the data were processed

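The authors deposited whole-number counts per Ensembl gene and FPKM values per gene symbol, 1 column per library and none pooled. Per the submitters' processing notes the build was mm10 and Cufflinks, StringTie and DESeq2 were used, without versions or roles; the aligner, annotation and strand setting are not given in the sources used here. Per the labels' protocols, RNA was isolated on spin columns and the library kit was TruSeq RNA Sample Prep v2.

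Counts were tested with edgeR 4.0.16 (R 4.3.3): TMM scaling, filterByExpr, 1 quasi-likelihood fit over all 12 libraries and 6 groups (common biological coefficient of variation 0.286), 11 contrasts, Benjamini-Hochberg adjustment over 18693 genes, calls at 0.05. CPM, computed from the deposited counts, divides by the library total. Folds against groups with no counts use a floor of 3 counts over the group; with 1 to 3 counts, the ratio has an exact 95% counting interval. Both reflect counting error alone. Values in every group were given for members with a group mean of at least 1 CPM, and folds for others that were called. Replicates differed by more than sampling noise in every group. The tests were checked on simulated data. The genes changed there had expected counts well above 0 in every group, so the check does not cover members with no counts in a group. Promoter windows came from RefSeq GRCm38.p6, gene positions and transcripts from GENCODE vM21, and identities from global alignments of a single window per gene in Biopython 1.88.

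The members, the marker lists and the tests were chosen with earlier results of these data known. Genes of the marker lists named with values were limited to 4 a list. Alternatives were RLE size factors, other filters, a length and GC correction, DESeq2 1.42.0, limma 3.58.1 on log2(FPKM + 1) or log2(FPKM + 0.1), fits to the contrast's groups alone, a replicate block and each library left out.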

Additional observations from a re-analysis of the deposited data

Results flagged for a closer look

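Ceacam9 stood out because its difference between S2/3DKO and WT changed between the stages. The interaction of genotype and stage had a log2 value of 11.51 ± 1.31 (edgeR adjusted p = 0.00664), the one member called in that test. At day 4 Ceacam9 was at least 97.7-fold higher in S2/3DKO than in WT, where it had no counts. At day 0 its log2 fold change of S2/3DKO over WT was -1.51 (adjusted p = 0.0885). The fitted interaction rests on a WT group at 0 counts, so its size depends on the prior count of the fit and is not a measured fold. It was called under every alternative tried, at an adjusted p of up to 0.0420.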

How the results depend on the processing

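Counts of members called moved by over 1.5 times under several alternatives; the cause was not tested. For S2/3DKO against WT at day 4 the 28 calls became 13 with DESeq2 and 18 with limma on FPKM at either pseudocount, and at day 0 the 13 became 8 with limma at a pseudocount of 1, 8 also without its filter, and 8 in a fit to the contrast's groups alone. Against S4KO the 27 calls at day 4 became 12 with DESeq2 and 17 with limma at either pseudocount, and the 10 at day 0 became 17 in edgeR without a filter and 5 with limma without one. For day 4 against day 0 in S2/3DKO the 13 calls became 26 in edgeR without a filter, 24 with the length and GC correction and 27 with limma without a filter, and in S4KO the 1 call became 2, 3, 2, 0 and 0 (edgeR without a filter, DESeq2, limma, limma without a filter, the contrast's groups alone). S4KO against WT went to 2 at day 0 (limma, and the groups alone), against 1, and to 1 at day 4 without a filter (edgeR or limma), against 0. The interaction of the S2/3DKO effect with stage went to 3 with DESeq2, 14 and 11 with limma at pseudocounts of 1 and 0.1, and 19 without its filter, against 1, and that of S4KO to 1 in edgeR without a filter and 1 with DESeq2, against 0. In that S2/3DKO interaction, limma reversed the sign of Serpinb9e (2.09), Serpinb9f (1.98) and Serpinb9h (1.78, also without its filter), genes with 0 counts in WT at day 0.

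Leaving out 1 library gave 14 to 30 calls for S2/3DKO against WT at day 4 and 7 to 15 at day 0, 0 to 1 for S4KO against WT at either stage, 13 to 28 against S4KO at day 4 and 6 to 12 at day 0, 0 to 15 for day 4 against day 0 in S2/3DKO, 0 to 3 in S4KO and 1 to 5 in WT, and 1 to 2 and 0 to 0 for the interactions of S2/3DKO and S4KO. With a replicate block there were 27 calls against WT at day 4 and 14 at day 0; same-numbered libraries correlated at -0.147 to 0.339 across groups, so the numbers were not taken to pair them. For single members, 7545 results kept their direction and side of the threshold, 302 lost the call, 191 gained it and 4 reversed. Over all genes, S2/3DKO against WT at day 4 gave 1347 higher and 1495 lower calls, and 2220 and 2294 with the length and GC correction. S4KO against WT at day 4 gave 127 higher and 196 lower, 486 and 445 with that correction, 316 and 438 without a filter, 514 and 535 with DESeq2, 132 and 378 with limma without a filter and 22 and 106 with the groups alone. The correction moved the higher share from 30.09% to 42.83% in the S2/3DKO interaction and from 7.143% to 29.79% in that of S4KO, which was 19.15% with RLE. At these depths, members under about 0.1 CPM could not be compared.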
